A study of Homo sapiens with 12 samples.

Results

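The genes examined were 10 that cells switch on when oxygen falls or that run sugar breakdown: EGLN1, EGLN3, ADM, CA9, NDRG1, BNIP3, PDK1, SLC2A1, LDHA and HK2. All probe sets whose only symbol in the platform annotation was one of these names were taken, where a probe set is several short probes summarised as a single value. This gave 19 probe sets of 9 genes, out of 54613 probe sets tested and 19775 genes with a probe set of 1 symbol. CA9 had no probe set under its name in the annotation used and was not analysed here. EGLN1 had 4 probe sets, PDK1 and HK2 had 3 each, EGLN3, BNIP3 and SLC2A1 had 2 each, and ADM, NDRG1 and LDHA had 1 each.

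The RNA came from MCF-10A, an established line of human breast epithelium that does not form tumours, taken 48 h after retroviral infection and read on 12 one-colour Affymetrix arrays. The 4 groups of 3 arrays carried NICD, Notch1 L1601P+∆P, wild-type full-length Notch1, or the vector alone. NICD is the intracellular domain that Notch1 releases when it is active, L1601P is a point substitution in the heterodimerization domain near the membrane, and ∆P removes the C-terminal PEST sequence that shortens the life of the intracellular domain. The descriptions of the NICD samples add gfp to the name and those of the other groups do not, so any effect of such a tag or reporter cannot be told apart from that of NICD. All groups are 1 cell line at 1 time after infection, with the Notch1 forms expressed from a virus on top of the cells' own NOTCH1, and no group was grown at low oxygen as far as the labels say. The replicates are labelled as biological, with nothing more on separate cultures or infections, so the p-values reflect only the variation among the arrays at hand, which may be technical.

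Cells sense oxygen through hydroxylases. When oxygen is plentiful, the prolyl hydroxylases encoded by EGLN1 and EGLN3 mark the alpha subunits of the hypoxia-inducible factors (HIF) for the VHL ubiquitin ligase, which has them degraded. When oxygen is scarce the subunits escape, pair with ARNT and switch on genes for glucose uptake, glycolysis, blood vessel growth and mitochondrial clearance, EGLN3 among them, so that the response feeds back on its own sensor. Active Notch acts through the DNA-binding protein RBPJ on its own target genes.

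The values are the authors' deposited log2 signals, on which a difference of 1 is a doubling. The dimmer NOTCH1 probe set lay between 8.75 and 8.83 with NICD, 8.72 and 8.76 with Notch1 L1601P+∆P, 9.11 and 9.19 with full-length Notch1, and 6.42 and 6.77 with vector, so NOTCH1 was higher on all 9 arrays of the 3 Notch1 forms. On the other NOTCH1 probe set only the NICD arrays (9.64 to 9.83) stood clear of the vector arrays (9.38 to 9.5). Array medians lay between 5.637 and 5.694. Of 7 basal mammary epithelial markers, 5 had a probe set under their name (KRT5, KRT14, CDH1, EGFR and LAMB3), and all 5 lay above the array medians on all 12 arrays. Of 5 fibroblast markers, DCN and COL1A1 did so too. Of 3 endothelial markers, PECAM1 (6.38 to 6.72) lay above the medians on all arrays and CDH5 (3.16 to 3.72) and VWF (5.27 to 5.58) below. Of 2 measured blood cell markers, CD3E (5.88 to 6.35) lay above them and PTPRC (3.33 to 3.71) below. The summed signal of the 5 fibroblast markers was 11.35 to 11.44 on the log2 scale with NICD and 11.03 to 11.13 with vector. DCN, the brightest of them, averaged 11.21 with NICD and 10.85 with vector, COL1A1 7.85 and 7.7, COL1A2 5.23 and 5.22, LUM 3.28 and 3.17, and PDGFRB 5.73 and 5.78. The summed signal of the 5 basal markers was 15.09 to 15.19 with NICD and 14.73 to 14.84 with vector, while LAMB3 averaged 9.67 with NICD and 11.12 with vector, and EGFR 10.03 with NICD and 10.75 with vector. The part of these markers in the results below was not tested. In RNA from whole cultures, fewer cells of a type and less RNA per cell cannot be told apart.

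To show what stands in front of these genes, the 250 bases before the RefSeq start of transcription are given for the 3 members whose brightest probe set was called in the NICD comparison with vector (EGLN3, ADM and SLC2A1) and for 2 known HIF targets that were not called (LDHA and BNIP3), whose windows held the most cores among the members. They are RefSeq sequences of the GRCh38.p14 build, 5′ to 3′ on the strand of the gene. The windows are chr14:33951075-33951324 (minus strand), chr11:10304823-10305072 (plus strand), chr1:42958869-42959118 (minus strand), chr11:18394313-18394562 (plus strand) and chr10:131981924-131982173 (minus strand). Capitals mark ACGTG and GCGTG, the core of the hypoxia response element to which HIF binds, or their reverse complements.
EGLN3: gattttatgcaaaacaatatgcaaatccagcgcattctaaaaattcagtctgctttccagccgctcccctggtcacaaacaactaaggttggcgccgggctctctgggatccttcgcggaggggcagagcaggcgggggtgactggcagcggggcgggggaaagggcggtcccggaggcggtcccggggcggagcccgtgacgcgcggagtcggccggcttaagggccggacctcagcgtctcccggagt
ADM: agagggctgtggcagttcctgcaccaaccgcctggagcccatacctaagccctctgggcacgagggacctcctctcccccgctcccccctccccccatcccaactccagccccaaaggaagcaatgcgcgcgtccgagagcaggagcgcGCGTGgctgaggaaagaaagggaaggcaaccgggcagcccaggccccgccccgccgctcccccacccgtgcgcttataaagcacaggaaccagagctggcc
SLC2A1: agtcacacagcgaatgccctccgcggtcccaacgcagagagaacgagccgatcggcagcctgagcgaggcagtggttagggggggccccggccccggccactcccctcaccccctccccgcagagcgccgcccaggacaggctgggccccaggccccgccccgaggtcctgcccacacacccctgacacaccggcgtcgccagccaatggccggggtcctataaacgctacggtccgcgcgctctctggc
LDHA: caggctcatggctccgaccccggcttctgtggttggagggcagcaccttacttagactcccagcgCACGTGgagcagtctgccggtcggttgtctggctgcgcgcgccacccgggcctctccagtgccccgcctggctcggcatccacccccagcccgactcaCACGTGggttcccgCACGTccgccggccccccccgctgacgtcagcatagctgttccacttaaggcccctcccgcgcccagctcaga
BNIP3: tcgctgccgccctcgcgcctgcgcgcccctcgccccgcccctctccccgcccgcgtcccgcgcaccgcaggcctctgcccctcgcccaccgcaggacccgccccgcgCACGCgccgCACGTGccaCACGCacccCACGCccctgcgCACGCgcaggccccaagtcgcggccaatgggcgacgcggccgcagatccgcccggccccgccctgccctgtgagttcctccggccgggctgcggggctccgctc

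The window of LDHA held ACGTG at 5 places counted over both strands, where the palindrome CACGTG counts on each strand, and that of BNIP3 held ACGTG 2 times and GCGTG 4 times. The ADM window held GCGTG 1 time, and those of EGLN3 and SLC2A1 held neither. Among the members not called by their brightest probe set, the PDK1 window also held neither and that of EGLN1 held ACGTG 1 time, so the number of cores in the printed windows does not compare called with uncalled members. Of 9 members with such a window, CA9 among them, 6 held one of the cores, as did 43.1% of 27305 promoter windows of the same length. TGGGAA, the core of the RBPJ motif, was in 0 of the 9 windows and in 21.1% of all. A match is a description of the letters, and no match says only that these letters are not in the 250 bases.

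With NICD, EGLN3 rose about 3- to 4-fold, ADM fell, and SLC2A1 fell by a smaller amount, while LDHA, BNIP3 and NDRG1 lay close to their vector levels. Of the 19 member probe sets, limma called 2 higher (both of EGLN3) and 3 lower (1 each of ADM, SLC2A1 and EGLN1) with p-values adjusted by Benjamini-Hochberg over the whole array and a threshold of 0.05, and 14 were not called. Among all 54613 probe sets 6.75% were called higher and 12.6% lower with NICD, so the share of members called is near that of the array as a whole. The median log2 fold change of the 19 probe sets was -0.12, beside -0.02 over all probe sets. By the brightest probe set of each gene, 1 of 9 members rose and 2 fell, beside 8.46% and 15.8% of all genes. The median by gene was -0.01 for the members, beside -0.02 for all genes.

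**Figure D1:**
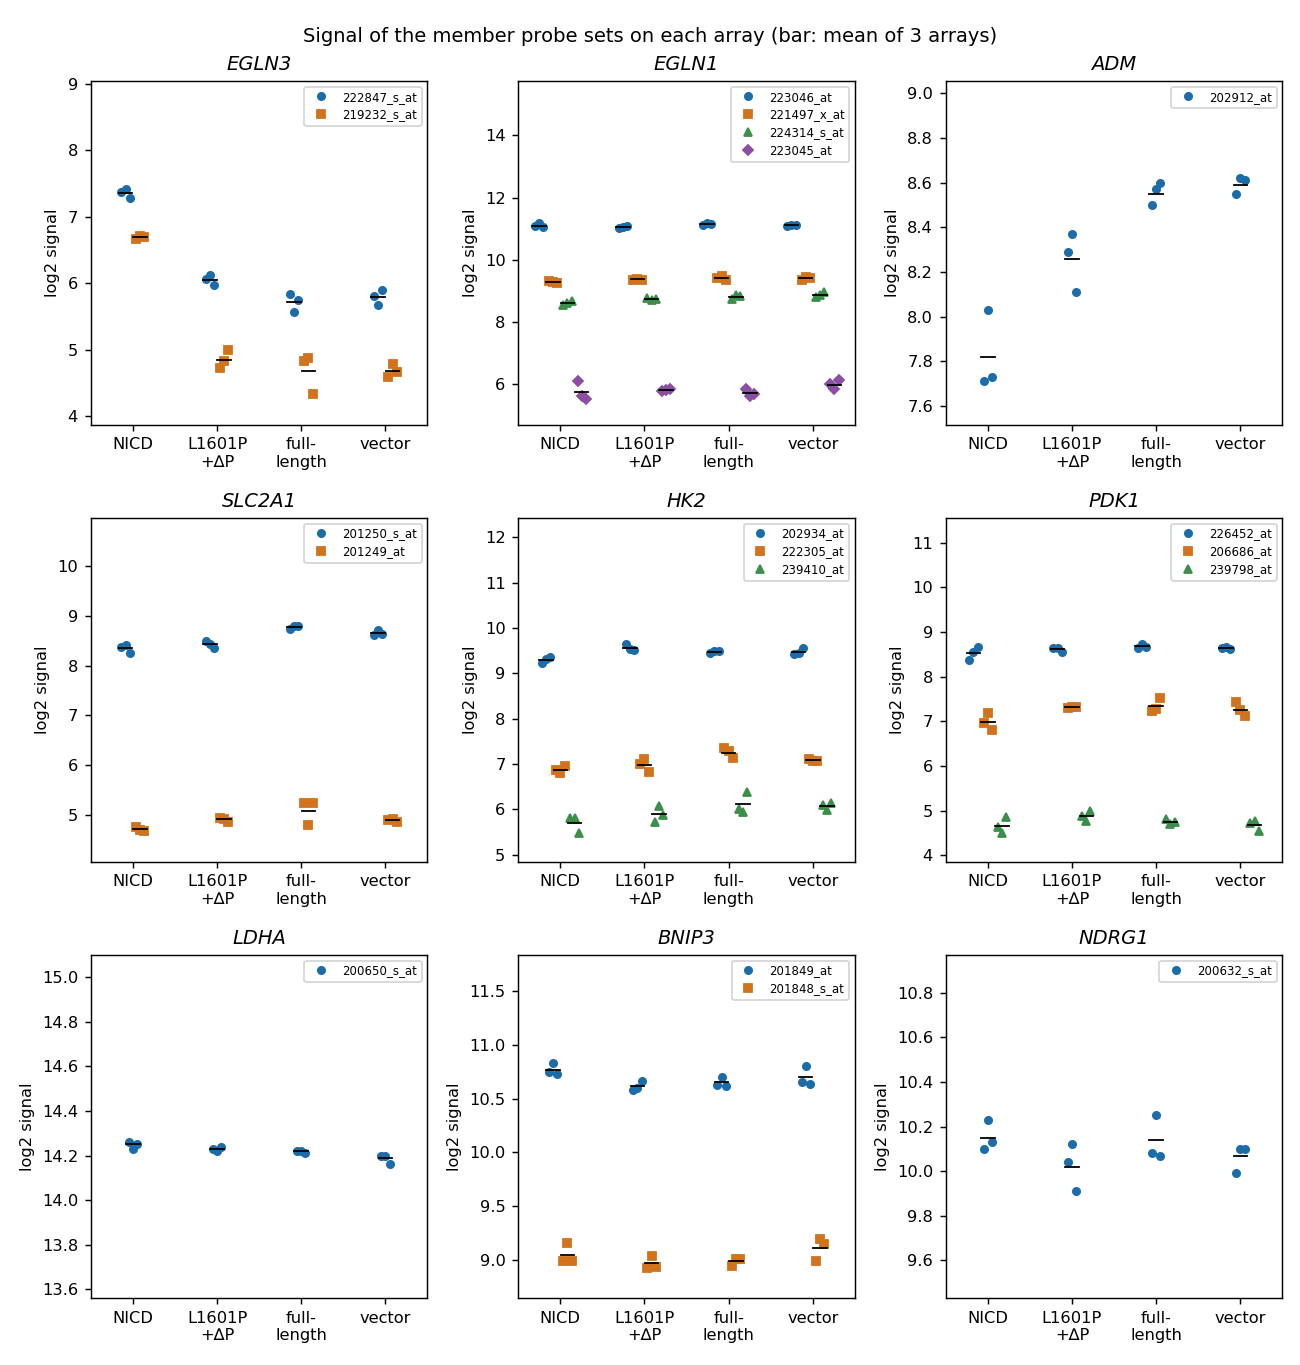
Log2 signal of the 19 member probe sets on each of the 12 arrays (points) with the mean of each group (bar), by group from NICD to vector, 1 panel per gene. Both EGLN3 probe sets stand highest on the 3 NICD arrays, ADM is lowest there (7.71 to 8.03), and the LDHA values lie between 14.16 and 14.26 on all arrays.

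EGLN3 encodes the prolyl hydroxylase that is itself strongly induced by hypoxia. Its brighter probe set, 222847_s_at, read 7.37, 7.41 and 7.28 on the NICD arrays, 6.07, 6.12 and 5.97 with Notch1 L1601P+∆P, 5.83, 5.57 and 5.74 with full-length Notch1, and 5.81, 5.67 and 5.9 with vector. The NICD arrays stood clear of all others, the Notch1 L1601P+∆P arrays lay just above the vector arrays without overlap, and full-length Notch1 and vector overlapped. The log2 fold change of NICD over vector was 1.56 ± 0.08 (standard error), a 2.94-fold rise with adjusted p = 2.39e-08. The other probe set, 219232_s_at, read 6.66, 6.71 and 6.69 with NICD, and 4.33 to 4.99 over the other 9 arrays, whose groups overlapped each other. Its log2 fold change was 2.01 ± 0.13, or 4.02-fold (adjusted p = 1.15e-07). Without NICD the second probe set lay below the array medians, where a fold may be understated. Both calls held under every alternative tried, with log2 fold changes from 1.49 to 1.61 and from 1.96 to 2.06.

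EGLN1, a second prolyl hydroxylase, is the main regulator of HIF in most cells at normal oxygen. Its brightest probe set, 223046_at, read 11.08, 11.17 and 11.06 with NICD, 11.02, 11.05 and 11.08 with Notch1 L1601P+∆P, 11.13, 11.18 and 11.15 with full-length Notch1, and 11.1, 11.13 and 11.11 with vector. The NICD arrays overlapped those of every other group on this probe set, and the 95% interval of the difference between NICD and vector was -0.13 to 0.11. Of the 4 EGLN1 probe sets only 224314_s_at was called with NICD. It read 8.55, 8.6 and 8.69 with NICD against 8.79, 8.88 and 8.96 with vector, a difference of -0.26 ± 0.06 (adjusted p = 0.0112). The EGLN1 call ended after cyclic loess (-0.17, adjusted p = 0.0964), in a fit of the 2 groups alone (0.0516), without NICD replicate 1 (0.0515) and without vector replicate 3 (0.0525), over a range of adjusted p from 0.00146 to 0.0964. The probe set 223045_at of EGLN1, the dimmest of the 4, was called only without NICD replicate 1 (-0.41, adjusted p = 0.0133, over a range from 0.0133 to 0.735).

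ADM encodes adrenomedullin, a secreted peptide that widens blood vessels and is a widely used marker of HIF activity. Its probe set read 7.71, 8.03 and 7.73 with NICD, 8.29, 8.37 and 8.11 with Notch1 L1601P+∆P, 8.5, 8.57 and 8.6 with full-length Notch1, and 8.55, 8.62 and 8.61 with vector. The NICD arrays were all below those of the other groups, the Notch1 L1601P+∆P arrays lay between, and full-length Notch1 and vector overlapped. ADM fell by 0.77 ± 0.09 on the log2 scale with NICD (adjusted p = 4.32e-05), or 1.7-fold. The ADM call held under all 13 alternatives, from -0.87 to -0.68.

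SLC2A1 encodes GLUT1, the main glucose carrier of epithelial cells in culture, and HK2 a hexokinase, which carries out the first step of glycolysis. The brighter SLC2A1 probe set, 201250_s_at, read 8.38, 8.41 and 8.26 with NICD, 8.5, 8.43 and 8.36 with Notch1 L1601P+∆P, 8.74, 8.79 and 8.79 with full-length Notch1, and 8.62, 8.71 and 8.64 with vector. On it the NICD and Notch1 L1601P+∆P arrays overlapped, and both lay below the vector arrays, which lay below those of full-length Notch1. SLC2A1 fell by 0.3 ± 0.06 with NICD on this probe set (adjusted p = 0.00343), and the call held under all 13 alternatives, from -0.33 to -0.21. The dim probe set 201249_at gave -0.17 ± 0.1 (adjusted p = 0.3).

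The 3 HK2 probe sets gave -0.18, -0.22 and -0.38 with NICD against vector, with adjusted p of 0.0702, 0.0911 and 0.0566, so none passed the threshold. On the brightest, 202934_at, the arrays read 9.24, 9.31 and 9.36 with NICD against 9.42, 9.46 and 9.57 with vector, and the groups did not overlap. That HK2 probe set was called without dim probe sets (adjusted p = 0.0324), with 1 probe set per gene (0.0386), with trend and robust moderation (0.0172) and with array weights (0.044), over a range from 0.0172 to 0.458. The dimmest, 239410_at, was called in 3 of 12 alternatives, over a range from 0.0269 to 0.205.

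PDK1 encodes pyruvate dehydrogenase kinase 1, which inhibits pyruvate dehydrogenase and so limits the conversion of pyruvate to acetyl-CoA, and LDHA the lactate dehydrogenase subunit that turns pyruvate into lactate. The brightest PDK1 probe set, 226452_at, read 8.38, 8.55 and 8.66 with NICD against 8.64, 8.67 and 8.62 with vector, overlapping. Its difference was -0.11 (95% interval -0.27 to 0.04). The second, 206686_at, gave -0.28 ± 0.11 (adjusted p = 0.098). This PDK1 probe set was called with trend and robust moderation (0.0442) and without NICD replicate 2 (-0.38, adjusted p = 0.0292), over a range from 0.0292 to 0.31. The third, below the array medians, gave -0.02.

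LDHA read 14.26, 14.23 and 14.25 with NICD, 14.23, 14.22 and 14.24 with Notch1 L1601P+∆P, 14.22, 14.22 and 14.21 with full-length Notch1, and 14.2, 14.2 and 14.16 with vector. These signals lie close to the top of the scale, which ended at 15.012, so a further rise could be compressed. The difference between NICD and vector was 0.06 (95% interval -0.05 to 0.17), with no overlap between the 2 groups but no call.

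BNIP3 encodes a mitochondrial outer membrane protein that directs mitochondria to autophagy. Its brighter probe set, 201849_at, read 10.75, 10.83 and 10.73 with NICD against 10.65, 10.8 and 10.64 with vector, with a difference of 0.07 (95% interval -0.06 to 0.21). The second BNIP3 probe set gave -0.06 (95% interval -0.22 to 0.09). NDRG1, a stress-responsive cytoplasmic protein, read 10.1, 10.23 and 10.13 with NICD against 9.99, 10.1 and 10.1 with vector. Its difference was 0.09 (95% interval -0.08 to 0.25), and the arrays of both genes overlapped between the groups.

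**Figure D2:**
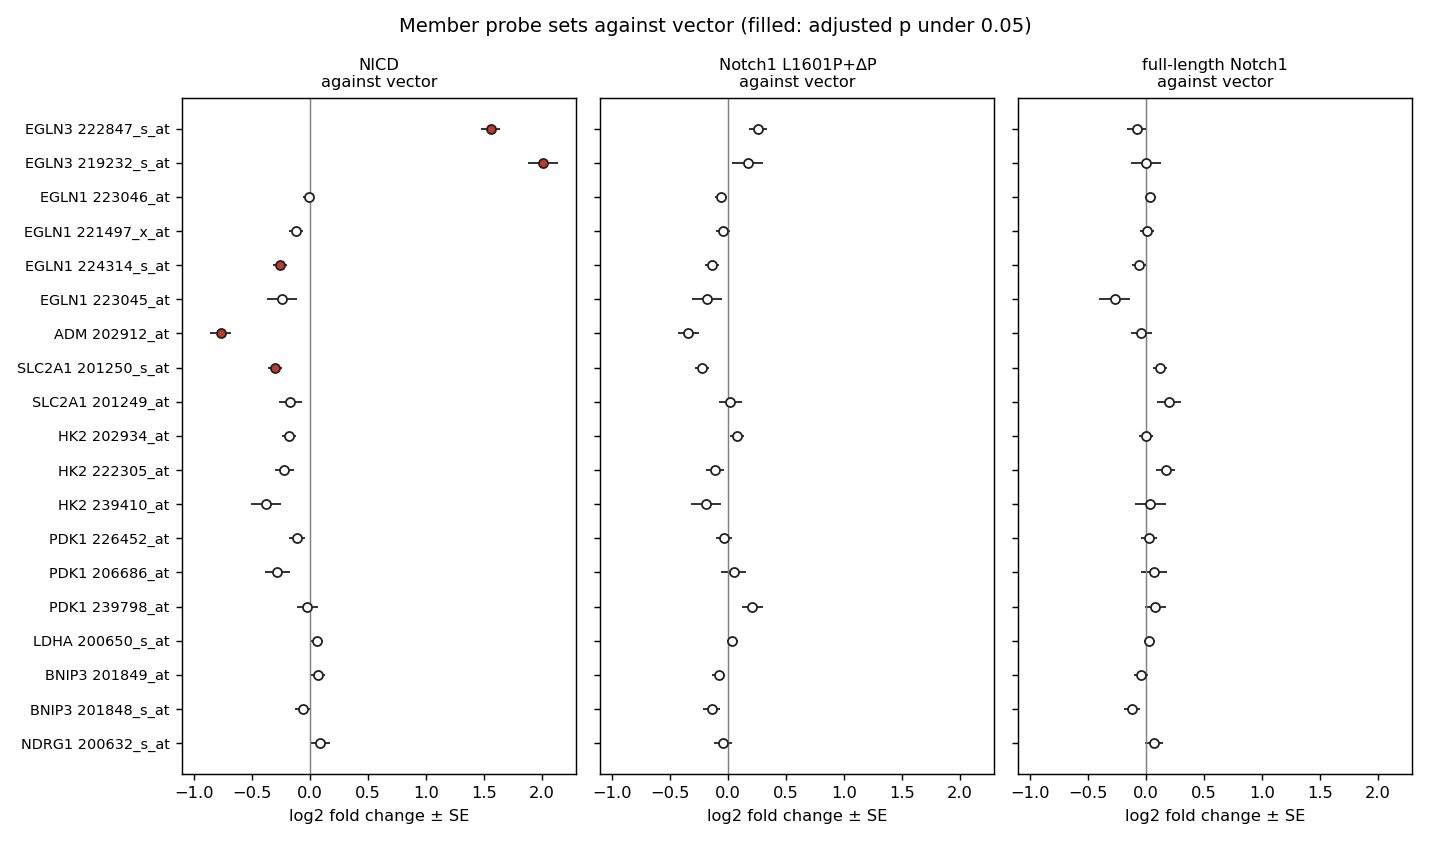
Log2 fold change ± standard error of each member probe set in NICD, Notch1 L1601P+∆P and full-length Notch1, each against vector (3 arrays per group, filled points with adjusted p under 0.05). Filled points appear in the NICD panel alone, with EGLN3 at 1.56 and 2.01 and ADM at -0.77.

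With Notch1 L1601P+∆P against vector, limma called 0 of the 19 member probe sets higher and 0 lower, beside 1.10% and 1.29% of all probe sets. Before adjustment 2 were higher and 3 lower with p under 0.05, beside 3689 and 5267 of all 54613 probe sets. The differences ran from -0.34 for ADM to 0.26 for the brighter EGLN3 probe set. For ADM, the Notch1 L1601P+∆P arrays lay below the vector arrays without overlap (-0.34 ± 0.09, adjusted p = 0.0825). The ADM difference was called without dim probe sets (adjusted p = 0.046), with 1 probe set per gene (0.047) and with trend and robust moderation (0.0127), over a range from 0.0127 to 0.209. The brighter SLC2A1 probe set gave -0.22 ± 0.06 (adjusted p = 0.091) and was called under the same 3 settings (0.0389, 0.0415 and 0.0269), over a range from 0.0269 to 0.242. For EGLN3 the brighter probe set gave 0.26 ± 0.08 (adjusted p = 0.144).

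With full-length Notch1 against vector, limma called 0 of the 19 in either direction. Before adjustment 0 had p under 0.05, beside 977 higher and 1827 lower of all 54613 probe sets. Of all probe sets, 4 were called higher and 2 lower in this comparison, or 0.00732% and 0.00366%. The member differences ran from -0.27 for EGLN1 223045_at to 0.2 for SLC2A1 201249_at, and EGLN3 gave -0.08 (95% interval -0.26 to 0.1) and 0.0 (95% interval -0.27 to 0.27). The 3 comparisons with vector share the vector arrays, so their values are not independent of each other.

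Between the Notch1 forms, NICD was tested against each receptor directly. EGLN3 was higher with NICD than with Notch1 L1601P+∆P by 1.3 ± 0.08 and 1.84 ± 0.13 on its 2 probe sets (adjusted p = 2.77e-07 and 5.2e-07), and than with full-length Notch1 by 1.64 ± 0.08 and 2.01 ± 0.13 (adjusted p = 1.55e-08 and 1.24e-07). ADM was lower with NICD than with Notch1 L1601P+∆P by 0.43 ± 0.09 (log2 fold change -0.43, adjusted p = 0.00601) and than with full-length Notch1 (-0.73 ± 0.09, adjusted p = 7.08e-05). These EGLN3 and ADM calls held under every alternative tried.

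Against full-length Notch1, 7 member probe sets were lower with NICD and 2 higher, beside 11.1% and 7.14% of all probe sets. By the brightest probe set of each gene, 1 of 9 members was higher and 2 lower, beside 8.68% and 14.5% of all genes. The 7 lower probe sets were that of ADM, both of SLC2A1, 2 of HK2, 1 of PDK1 and 1 of EGLN1. Those of SLC2A1 gave -0.42 ± 0.06 and -0.38 ± 0.1 (adjusted p = 0.000303 and 0.0212). Of HK2, 222305_at gave -0.39 ± 0.08 (adjusted p = 0.00499), called under all 12 alternatives, and 239410_at gave -0.42 ± 0.13 (adjusted p = 0.0395). The brightest HK2 probe set gave -0.18 ± 0.06 (adjusted p = 0.0794, with a range from 0.021 to 0.498). The count of 7 lower probe sets rested on single arrays, being 4 without NICD replicate 1, NICD replicate 3 or full-length Notch1 replicate 1 and 3 without full-length Notch1 replicate 3. EGLN1 224314_s_at (-0.2, adjusted p = 0.0493) was called in 4 of 12 alternatives, PDK1 206686_at (-0.35, adjusted p = 0.0392) and HK2 239410_at in 5 of 12 each, and SLC2A1 201249_at in 5 of 11, with highest adjusted p of 0.3, 0.162, 0.163 and 0.0958.

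Against Notch1 L1601P+∆P, 2 member probe sets were higher with NICD (EGLN3) and 2 lower (ADM and the brightest of HK2), beside 6.04% and 7.01% of all probe sets. HK2 202934_at read 9.24, 9.31 and 9.36 with NICD against 9.64, 9.53 and 9.51 with Notch1 L1601P+∆P, a difference of -0.26 ± 0.06 (adjusted p = 0.0173). The HK2 call ended without NICD replicate 1 (-0.23, adjusted p = 0.0707), without Notch1 L1601P+∆P replicate 1 (-0.22, adjusted p = 0.0849) and in a fit of the 2 groups alone (0.0622), over a range from 0.0013 to 0.0849. PDK1 206686_at gave -0.33 ± 0.11 without overlap (adjusted p = 0.0694). It was called in 4 of 12 alternatives, over a range from 0.0229 to 0.237. PDK1 239798_at (-0.23 ± 0.09, adjusted p = 0.155) was called in 1 of 11, over a range from 0.0419 to 0.393.

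Notch1 L1601P+∆P differed from full-length Notch1 in 1 member probe set, the brighter of SLC2A1, with 0 higher and 1 lower by limma, beside 0.925% and 0.709% of all. Before adjustment 1 was higher and 3 lower with p under 0.05, beside 4047 and 3971 of all 54613 probe sets. SLC2A1 201250_s_at read 8.5, 8.43 and 8.36 with Notch1 L1601P+∆P against 8.74, 8.79 and 8.79 with full-length Notch1, with no overlap and a difference of -0.34 ± 0.06 (adjusted p = 0.0141). The SLC2A1 call ended without replicate 2 or 3 of either group (0.0616 and 0.0565 for Notch1 L1601P+∆P, 0.0641 and 0.07 for full-length Notch1) and in a fit of the 2 groups alone (0.056), with a lowest adjusted p of 0.00074. For EGLN3 the brighter probe set gave 0.34 ± 0.08 (adjusted p = 0.0697), which passed in 4 of 13 alternatives, over a range from 0.0284 to 0.237. ADM gave -0.3 ± 0.09 (adjusted p = 0.15, with a range from 0.0369 to 0.387).

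**Figure D3:**
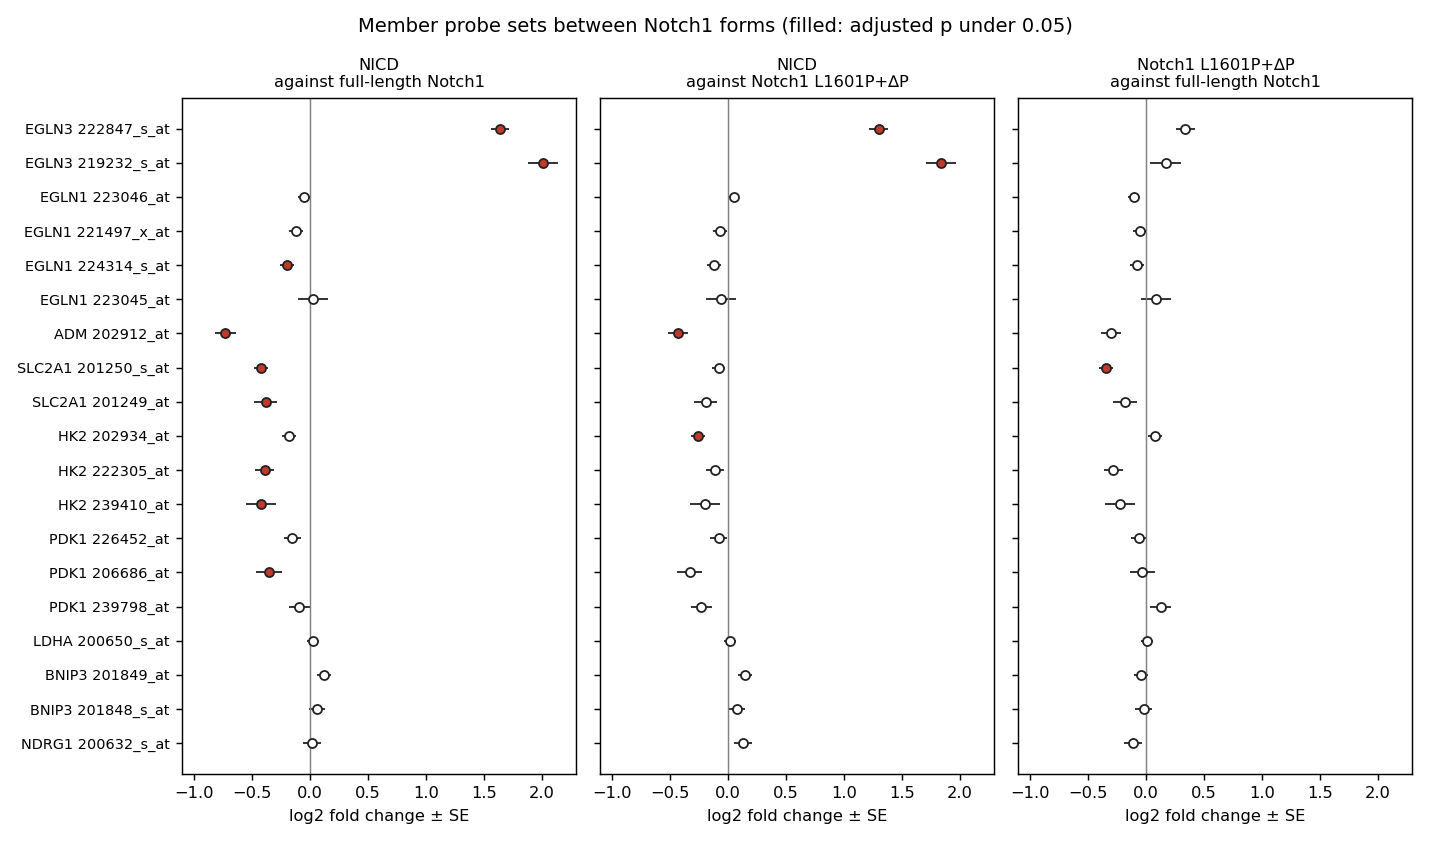
Log2 fold change ± standard error of each member probe set between the Notch1 forms, 3 arrays per group, filled points with adjusted p under 0.05. EGLN3 is higher with NICD than with either receptor (1.3 to 2.01), and in the right panel SLC2A1 201250_s_at, at -0.34, carries the single filled point.

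The rest of the pathway was read from 4 lists of 60 further genes, 58 of which had a probe set, each gene by its brightest one. With NICD against vector, 10 of the 58 rose and 19 fell, beside 8.46% and 15.8% of all genes, and the median log2 fold change was -0.09, beside -0.02 for all genes. Of the HIF subunits, hydroxylases and VHL, 1 of 9 rose and 3 fell, with a median of -0.05. HIF1A, the oxygen-labile alpha subunit, averaged 13.31 ± 0.07 with NICD and 12.78 ± 0.03 with vector (SD, n = 3), a rise of 0.53 ± 0.06 (adjusted p = 1.96e-05). CITED2, which competes with HIF for the coactivator p300, fell by 0.7 ± 0.12. ARNT2, a relative of the HIF partner ARNT, fell by 0.55 ± 0.08 at a level below the array medians in the NICD group. HIF1AN, the asparaginyl hydroxylase, fell by 0.25 ± 0.06. EPAS1, VHL and EGLN2 were not called (0.02, -0.3 ± 0.17 and 0.01). EGLN2 averaged 4.56 with NICD and 4.55 with vector, below the array medians, where a fold may be understated.

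Of 18 glycolytic enzymes, 0 rose by limma and 6 fell with NICD against vector, beside 8.46% and 15.8% of all genes. Their median log2 fold change was -0.13. Before adjustment, 0 were higher and 8 lower with p under 0.05, beside 2487 and 4408 of all 19775 genes. PFKP and PFKM, the platelet and muscle forms of phosphofructokinase, fell by 0.58 ± 0.06 and 0.47 ± 0.06, the aldolase ALDOC by 0.48 ± 0.07, and PFKFB4, which makes the phosphofructokinase activator, by 0.38 ± 0.09. GAPDH (-0.1), PGK1 (0.11) and ENO1 (-0.11), abundant enzymes of the later steps of the pathway, were not called. PKM and LDHB, also abundant and of late steps, did fall (-0.37 ± 0.07 and -0.19 ± 0.05, adjusted p = 0.00302 and 0.0235). The count of glycolytic enzymes that fell was 5 after cyclic loess, with 1 higher, and 11 with trend and robust moderation, with 1 higher. The log2 signal of the 3′ less that of the 5′ control probe set, which grows as RNA degrades, was 0.39 ± 0.05 for ACTB with NICD and 0.3 ± 0.05 with vector, and for GAPDH -0.04 ± 0.02 with NICD and -0.01 ± 0.01 with vector (SD, n = 3), and its part in these results was not tested.

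Of 11 genes for glucose, lactate and pyruvate transport and pyruvate entry, 9 had a probe set. SLC16A1 and SLC16A3, the lactate carriers of the list, had none of 1 symbol, so lactate transport was not measured. Of the 9, 3 rose and 1 fell with NICD against vector, beside 8.46% and 15.8% of all genes. PDP1, the phosphatase that activates pyruvate dehydrogenase, averaged 11.34 ± 0.07 with NICD, 10.06 ± 0.09 with Notch1 L1601P+∆P, 9.42 ± 0.05 with full-length Notch1 and 9.39 ± 0.05 with vector. PDK4, a kinase that acts on the same enzyme complex in the opposite sense, averaged 9.47 ± 0.13, 8.49 ± 0.1, 8.06 ± 0.15 and 7.96 ± 0.05 in the same order of groups. Both were called with NICD (1.95 and 1.5) and with Notch1 L1601P+∆P (0.68 ± 0.07 and 0.53 ± 0.09, adjusted p = 0.000111 and 0.00669). The glucose carrier SLC2A3 rose by 0.27 ± 0.06 with NICD at a level below the array medians, and MPC2, a subunit of the mitochondrial pyruvate carrier, fell by 0.49 ± 0.06.

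Of 22 other hypoxia-induced genes, 6 rose and 9 fell with NICD against vector, beside 8.46% and 15.8% of all genes. Their median log2 fold change was -0.05. The membrane protein TMEM45A averaged 12.32 ± 0.04 with NICD, 10.55 ± 0.06 with Notch1 L1601P+∆P, 8.87 ± 0.11 with full-length Notch1 and 8.7 ± 0.05 with vector. It was called with NICD (3.62 ± 0.07, adjusted p = 1.46e-12) and with Notch1 L1601P+∆P (1.85 ± 0.07, adjusted p = 8.05e-09). The repressor BHLHE40 rose by 0.57 ± 0.06, ANKRD37 by 0.48 ± 0.08 and P4HA2, a collagen prolyl hydroxylase, by 0.47 ± 0.06. The collagen cross-linking enzyme LOX fell by 0.71 ± 0.06, STC2, a secreted glycoprotein, by 0.65 ± 0.2, DDIT4, an inhibitor of mTOR signalling, by 0.6 ± 0.06, and ANGPTL4, an inhibitor of lipoprotein lipase, by 0.55 ± 0.09. The STC2 call lay close to the threshold (adjusted p = 0.0418), with an SD of 0.27 among the vector arrays. VEGFA, the vessel growth factor, was not called (-0.17, adjusted p = 0.131).

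**Figure D4:**
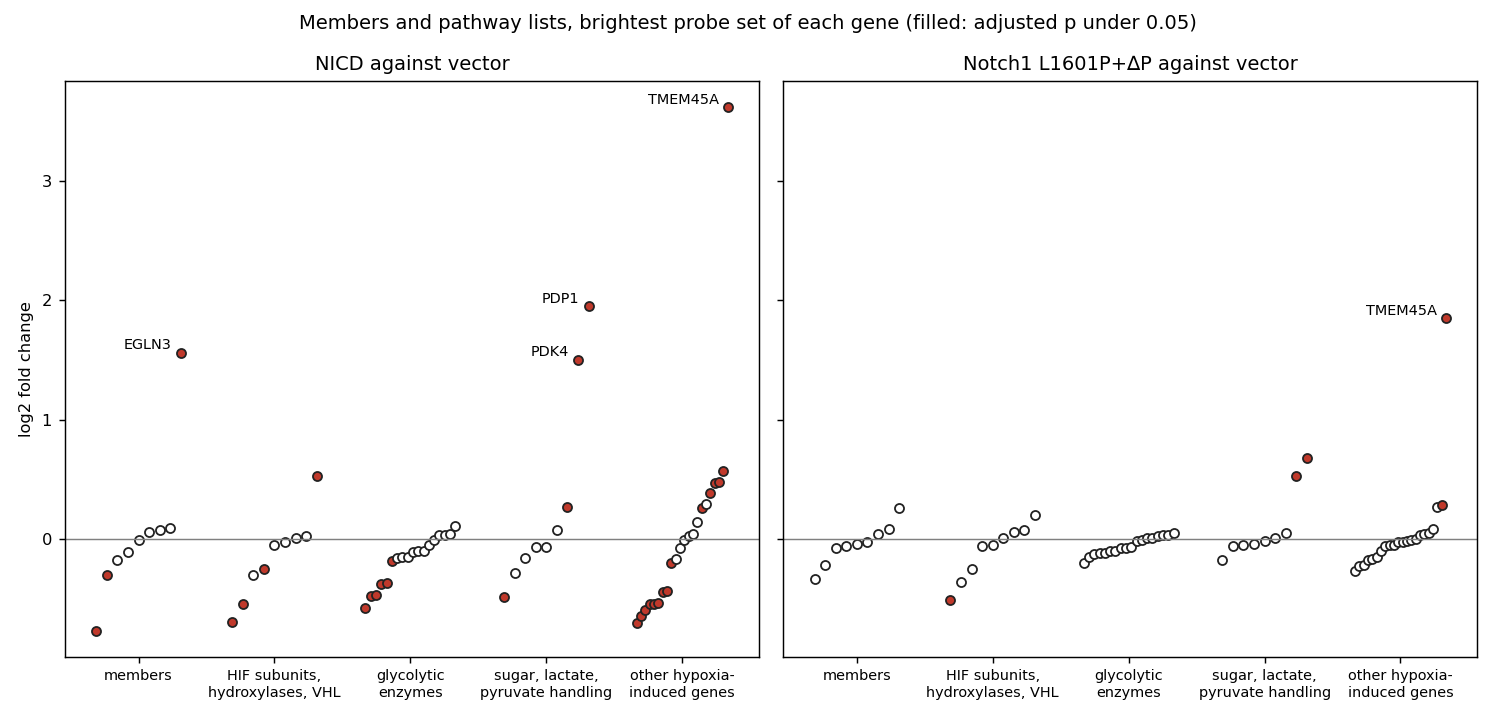
Log2 fold change of the 9 members and of the genes of 4 pathway lists (brightest probe set of each gene) with NICD against vector and with Notch1 L1601P+∆P against vector, filled points with adjusted p under 0.05. In both panels TMEM45A is highest (3.62 and 1.85), and with NICD each list but the glycolytic enzymes holds filled points on both sides of 0.

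With Notch1 L1601P+∆P against vector, 4 of the 58 list genes rose and 1 fell, beside 1.64% and 1.75% of all genes. Those that rose were TMEM45A, PDP1, PDK4 and BHLHE40 (0.28 ± 0.06, adjusted p = 0.037), and ARNT2 fell by 0.51 ± 0.08. With full-length Notch1 limma called 0 of the 58 in either direction, beside 0.0152% and 0.00506% of all genes. Before adjustment 2 were higher and 2 lower with p under 0.05, beside 383 and 516 of all 19775 genes.

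The lists were also compared between the Notch1 forms. With NICD against full-length Notch1, 10 of the 58 list genes were higher and 18 lower, beside 8.68% and 14.5% of all genes. The 58 ran from -0.74 (LOX) to 3.45 (TMEM45A). PKM, the last enzyme of glycolysis, was lower by this comparison (-0.44 ± 0.07, adjusted p = 0.000885), as were PFKP (-0.52 ± 0.06) and PFKM (-0.5 ± 0.06). BNIP3L, a relative of BNIP3 in mitochondrial clearance, was higher (0.44 ± 0.06, adjusted p = 0.000169). Neither BNIP3 probe set was called in the main fit. The brighter BNIP3 probe set gave 0.12 ± 0.06 without overlap (adjusted p = 0.247), called only after cyclic loess (0.22, adjusted p = 0.0205). Against Notch1 L1601P+∆P it gave 0.15 ± 0.06 without overlap (adjusted p = 0.144). There it was called after cyclic loess (0.044) and with trend and robust moderation (0.0298).

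With NICD against Notch1 L1601P+∆P, 11 of the 58 were higher and 13 lower, beside 7.48% and 9.06% of all genes. The 58 ran from -0.54 (LOX) to 1.77 (TMEM45A). Of the 18 glycolytic enzymes, 1 was higher there and 5 lower. The lower ones were PFKP (-0.43 ± 0.06), ALDOC (-0.36 ± 0.07), PFKM (-0.34 ± 0.06), PFKFB4 (-0.3 ± 0.09) and PKM (-0.27 ± 0.07). The higher one was PFKFB3, which makes the activator of phosphofructokinase (0.24 ± 0.06, adjusted p = 0.0136). It averaged 8.23 with NICD, 8 with Notch1 L1601P+∆P, 8.23 with full-length Notch1 and 8.2 with vector. With Notch1 L1601P+∆P against full-length Notch1, 3 were higher and 0 lower by limma, beside 1.29% and 1.07% of all genes. The 3 called were TMEM45A (1.68 ± 0.07), PDP1 (0.64 ± 0.07) and PDK4 (0.43 ± 0.09). Before adjustment 7 were higher and 8 lower with p under 0.05, beside 1596 and 1798 of all 19775 genes.

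EGLN3 and ADM had the widest ranges of group means among the members, 1.64 and 0.77 by the brightest probe set. Over the 12 arrays the genes most correlated with EGLN3 were IGFBP7-AS1 (Pearson's r = 0.994), SDC2 (0.991) and GPX2 (0.991), and those most correlated with ADM were TRAF7 (0.99), SIVA1 (0.985) and ADSS1 (0.984). The arrays share their groups, so these values mostly describe the order of the group means. IGFBP7-AS1 averaged 9.32 with NICD, 4.21 with Notch1 L1601P+∆P, 2.89 with full-length Notch1 and 2.92 with vector.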

How the data were processed

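The authors' deposited table gives 1 log2 signal per probe set and array for 12 Affymetrix arrays. RMA, which subtracts background, quantile-normalizes the arrays and summarises each probe set, is named with limma per the submitters' processing notes, without versions. Quantile normalization hides a shift of most genes in 1 direction. The number of arrays limits the precision. Of 54675 probe sets, 62 Affymetrix controls were left out. Gene names came from the platform annotation, in which 41091 probe sets carried 1 symbol, 1801 several and 11721 none, and 41037 of the first matched a RefSeq gene number.

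The fit, in limma 3.58.1 under R 4.3.3, took a mean per group with eBayes moderation over all 54613 remaining probe sets and all 12 arrays, with 8 residual and 4.3 prior degrees of freedom. All 6 pairwise comparisons were made, two-sided, with Benjamini-Hochberg adjustment over all probe sets of a comparison and a threshold of 0.05. Group means carry the SD of 3 arrays, and log2 fold changes the fit's standard error. The fit was tested on data simulated with log2 changes of 1 and 2 in either direction. That test does not cover smaller changes, such as those of ADM and SLC2A1. For 1 value per gene, the probe set with the highest mean stands for the gene. Members, pathway lists and markers were chosen with earlier results of these data known. In each list up to 4 called genes per direction with the largest changes were to be named. For NICD against the other Notch1 forms this was not followed, and the genes named there are a selection. PKM and LDHB against vector were named in addition. Genes given as not called were chosen after their values were seen. For the 2 members with the widest range of group means, the 3 most correlated genes were named.

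Alternatives were 1 probe set per gene, leaving out probe sets with a mean below 5, cyclic loess, the replicate number as a block, trend and robust moderation, the 2 groups alone, array weights and leaving out each array. Promoter sequences are RefSeq's, build GRCh38.p14, and 2703 of 2703 overlapping windows of opposite strands were reverse complements of each other.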

Additional observations from a re-analysis of the deposited data

How the results depend on the processing

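Of 1410 repeats of a member probe set's test under an alternative, 1335 kept their side of the threshold, 40 lost a call and 35 gained one, and no called value changed sign. The calls of EGLN3 and ADM with NICD held in every repeat, and those of SLC2A1 201250_s_at with NICD against vector and full-length Notch1 as well. With 1 probe set per gene, which by construction tests at most 9 member probe sets, 1 was higher with NICD against vector, against Notch1 L1601P+∆P and against full-length Notch1, and 3 were lower in the last. Under it 2 were lower with Notch1 L1601P+∆P against vector and 1 higher against full-length Notch1. Without dim probe sets 5 were lower with NICD and 2 with Notch1 L1601P+∆P against vector, and 1 was higher with Notch1 L1601P+∆P against full-length Notch1. Trend and robust moderation gave 6 and 2 lower against vector in the same order, and 1 higher and 2 lower with Notch1 L1601P+∆P against full-length Notch1. Array weights gave 1 higher in that last comparison. A fit of the 2 groups alone, with fewer arrays, left 1 lower with NICD against Notch1 L1601P+∆P, 3 lower against full-length Notch1, and 0 with Notch1 L1601P+∆P against full-length Notch1 by limma. Other causes were not tested.

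Leaving out 1 array at a time gave 2 higher and 2 to 4 lower with NICD against vector, 2 higher and 1 to 3 lower against Notch1 L1601P+∆P, and 2 higher and 3 to 5 lower against full-length Notch1. It gave 0 in either direction with Notch1 L1601P+∆P or full-length Notch1 against vector, and 0 higher and 0 to 1 lower with Notch1 L1601P+∆P against full-length Notch1.

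The labels do not say whether the replicate numbers pair the samples. The deviations of same-numbered arrays from their group means correlated between -0.2 and 0.24, over 0.1 in 2 of 18 pairs. Those 2 pairs (0.24 and 0.15) were of NICD and full-length Notch1. With 3 arrays per group, such low values cannot show whether the samples were paired. With the replicate block, 4 member probe sets in place of 7 were lower with NICD against full-length Notch1, and the other member counts stayed within 1.5 times.

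Cyclic loess moved the share of higher among called probe sets from 34.9% to 49.1% with NICD against vector, from 46.1% to 57.8% with Notch1 L1601P+∆P against vector, and from 39.2% to 51.2% with NICD against full-length Notch1. Between Notch1 L1601P+∆P and full-length Notch1 it moved from 56.6% to 67.1%. The median of all probe sets moved by less than 0.1 in each. Over all probe sets, trend and robust moderation called 803 higher and 1515 lower with Notch1 L1601P+∆P against vector, where 603 and 704 were called without it. With full-length Notch1 against vector it called 27 and 2 in place of 4 and 2 (8 and 2 without dim probe sets), and with Notch1 L1601P+∆P against full-length Notch1 682 and 1050 in place of 505 and 387. That last comparison gave 651 and 715 without dim probe sets, 742 and 702 with array weights, and 345 and 176 in a fit of the 2 groups alone, which gave 454 and 366 with Notch1 L1601P+∆P against vector. Whether folds of very bright (LDHA) or dim (EGLN3 219232_s_at without NICD, SLC2A1 201249_at) signals are understated was not tested.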
